A study of Homo sapiens with 4 samples.

Results

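The genes of the E2F transcription factors and their RB-family partners were examined in K562 cells, a human erythroleukemia line that hemin, an iron-containing porphyrin, can drive toward the erythroid state. The 10 genes, taken by symbol, were E2F1, E2F2, E2F3, E2F4, E2F5, E2F6, E2F8, RB1, RBL1 and TFDP1, out of 61498 genes in the expression files, and each symbol matched 1 gene identifier. Poly(A) RNA was sequenced from 2 untreated libraries and from 2 libraries of cells kept in 50 µM hemin for 108 h, a dose at which the submitters state that proliferation was unaffected. All 4 libraries came from the same line in the same serum-containing medium, and nothing in the labels says that the 2 libraries of a condition came from separate cultures, so the p-values measure the spread between these libraries, which may be technical.

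E2F factors bind DNA with a DP partner such as the product of TFDP1 and set the expression of genes for DNA replication and cell division. E2F1, E2F2 and E2F3 are known as activators that are held in check by the retinoblastoma protein RB1, whereas E2F4 and E2F5 act mainly as repressors together with the RB relatives p107 (RBL1) and p130 (RBL2). E2F6 represses through Polycomb-type complexes without a pocket protein, and E2F8 is an atypical repressor that needs no DP partner. In erythroid cells this network is known for linking the last divisions to maturation.

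The summed expected counts, which RSEM estimates per gene, ranged from 7455447 to 8241534 per library, and 12.8% to 13.6% of them fell on the mitochondrial genome. A count of 3, the limit that a count of 0 allows, was worth 0.364 to 0.402 CPM (counts scaled to the library total). Replicate libraries were not copies of each other, since the chi-square of their counts averaged 1.80 per gene in untreated cells and 2.16 after hemin, above that of sampling alone. All 12 erythroid markers checked were counted in every library, from EPOR, the erythropoietin receptor, with a mean of 5.05 TPM in untreated cells, to HBE1, the embryonic globin, at 2228 to 2972 TPM. Of 14 markers of other blood cells and of fibroblasts, CD3E, MS4A1, MPO, ELANE, PF4 and GP9 were at 0 in all 4 libraries. The summed level of these 14 was 9.85 and 14.5 TPM in the untreated libraries and 7.84 and 7.34 TPM in the hemin libraries, and the one with the highest mean, COL1A2, a collagen chain of fibroblasts, stood at 3.29 to 5.16 TPM. The libraries are of the K562 line, and no label names other cells in them. The source of these low levels was not tested, nor was the part of the lower sum after hemin in the results. In bulk RNA, fewer cells of a type cannot be told apart from less RNA per cell.

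The start regions of the members are shown first, since several of them hold the words that E2F factors are known to read. A word was counted as a match when TTTCCCGC, TTTCGCGC, TTTGCCGC or TTTGGCGC stood on either strand within the 300 bases around a RefSeq gene start (GRCh38.p14), 250 before it and 50 after it. Such a word stood in at least 1 promoter of 3.99% of 27305 genes with a RefSeq entry and in 5 of the 8 members with one, namely E2F1, E2F2, E2F3, RBL1 and TFDP1. No entry was held for E2F5 and E2F8, and the RB1 entry belonged to a start inside the annotated gene. The 150 bases before the start are printed for the 4 members whose words lie closest to it, and for E2F4, which with RBL1 passed the test below but had no match in its window. The sequences run 5′ to 3′ on the strand of the gene, and capitals mark the words. They are chr20:33686386-33686535 on the minus strand, chr1:23531234-23531383 on the minus strand, chr6:20401729-20401878 on the plus strand, chr20:37095998-37096147 on the minus strand and chr16:67192005-67192154 on the plus strand.
E2F1: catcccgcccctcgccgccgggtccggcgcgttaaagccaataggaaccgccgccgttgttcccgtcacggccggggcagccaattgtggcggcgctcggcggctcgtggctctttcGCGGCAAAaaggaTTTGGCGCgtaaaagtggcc
E2F2: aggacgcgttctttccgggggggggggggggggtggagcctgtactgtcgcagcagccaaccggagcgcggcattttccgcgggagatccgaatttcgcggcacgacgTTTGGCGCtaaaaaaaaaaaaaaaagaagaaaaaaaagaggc
E2F3: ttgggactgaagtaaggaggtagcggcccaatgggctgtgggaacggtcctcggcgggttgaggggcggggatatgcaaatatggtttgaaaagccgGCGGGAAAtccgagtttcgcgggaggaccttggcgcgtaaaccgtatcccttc
RBL1: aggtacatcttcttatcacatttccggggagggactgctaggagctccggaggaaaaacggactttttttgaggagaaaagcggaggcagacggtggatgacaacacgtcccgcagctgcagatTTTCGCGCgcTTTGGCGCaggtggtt
E2F4: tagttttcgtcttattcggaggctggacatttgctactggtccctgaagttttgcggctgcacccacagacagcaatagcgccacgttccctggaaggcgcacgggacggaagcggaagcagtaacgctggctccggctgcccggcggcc

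Counted back from the start, the words of E2F1 began at -33 on the opposite strand and at -20 on the strand of the gene. Those of RBL1 began at -26 and -16, separated by a gap of 2 bases, both on the strand of the gene. The single words of E2F2 and E2F3 began at -42 and -53, and that of TFDP1 farther away at -120. No word overlapped another. A match describes these letters in the window and is not evidence of binding.

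In the level of transcripts (TPM, counts scaled by effective length and depth), the 10 genes spanned from 3.82 to 55.2 TPM on average in the untreated libraries. E2F4 stood highest, at 56.9 and 53.5 TPM in the untreated libraries and 64.8 and 66.7 TPM in the hemin libraries. It was followed by TFDP1, E2F3, E2F6, E2F5 and RB1, and this order was the same in both conditions, with the 2 libraries of each gene apart from those of its neighbour. Lower down, E2F1 (10.7 TPM on average) and E2F2 (9.95 TPM) overlapped in the untreated libraries, whereas RBL1 (9.06 and 11.2 TPM) and E2F1 (9.11 and 10.9 TPM) overlapped after hemin. E2F8 was lowest in both conditions, with 4.56 and 3.08 TPM in untreated cells and 5.12 and 5.57 TPM after hemin.

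**Figure D1:**
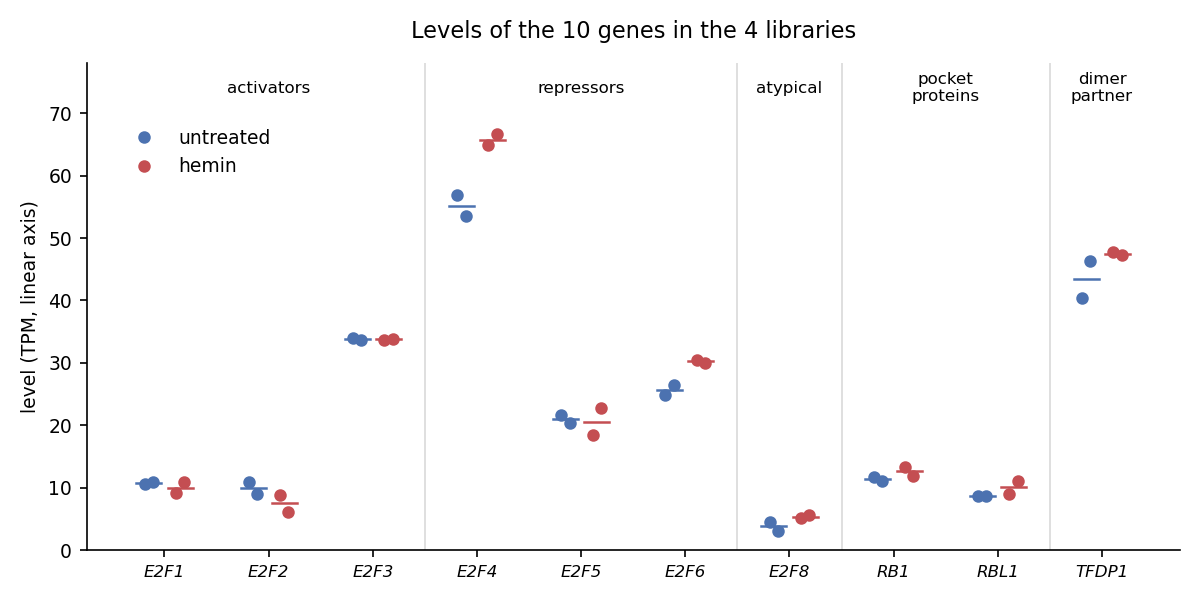
Level in TPM (linear axis) of the 10 genes in each of the 4 libraries, grouped by role, with untreated libraries in blue and hemin libraries in red and a line at the mean of each pair. E2F4 lies above all the others in every library, E2F3 stays between 33.7 and 34.0 TPM, and E2F8 is lowest, between 3.08 and 5.57 TPM.

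The comparison of hemin with untreated cells asks which of these genes differ in expression after erythroid induction. After hemin, 2 members rose and none fell: E2F4, the most abundant E2F gene here, 1.25-fold, and RBL1, which codes for the pocket protein p107, 1.29-fold. They were called by edgeR's quasi-likelihood test on the rounded expected counts at an adjusted p under 0.05 over 14458 genes. RBL1 was not called by DESeq2, and neither gene was called by limma on TPM or with effective lengths as offsets, as given below. Across all genes tested, 7.0% were called higher and 7.14% lower. E2F6, E2F8, RB1 and TFDP1 had positive log2 fold changes that did not pass, and the 3 activator genes and E2F5 did not pass in either direction. The median log2 fold change of the 10 members was 0.15, beside -0.005 over all genes tested.

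In CPM after TMM scaling, both hemin libraries lay above both untreated libraries for 6 of the 10 members, against 28.1% of all genes tested. The 6 were E2F3, E2F4, E2F6, E2F8, RB1 and RBL1. E2F3 was separated only narrowly, at 114.2 and 114.0 CPM in untreated cells and 115.4 and 118.1 CPM after hemin, and its TPM overlapped. None of the 10 lay below, against 29.3% of all genes. At an unadjusted p under 0.05, edgeR gave 4 members higher (E2F4, E2F6, RB1 and RBL1) and 0 lower, beside 14.8% and 14.6% of all genes. DESeq2 called 1 member higher, E2F4, and 0 lower, beside 4.07% of all genes called higher and 3.49% called lower by that tool. Of the 10 fitted log2 fold changes 7 were above 0 (6 with library size only, where E2F3 was at -0.005), against 49.1% over all genes.

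**Figure D2:**
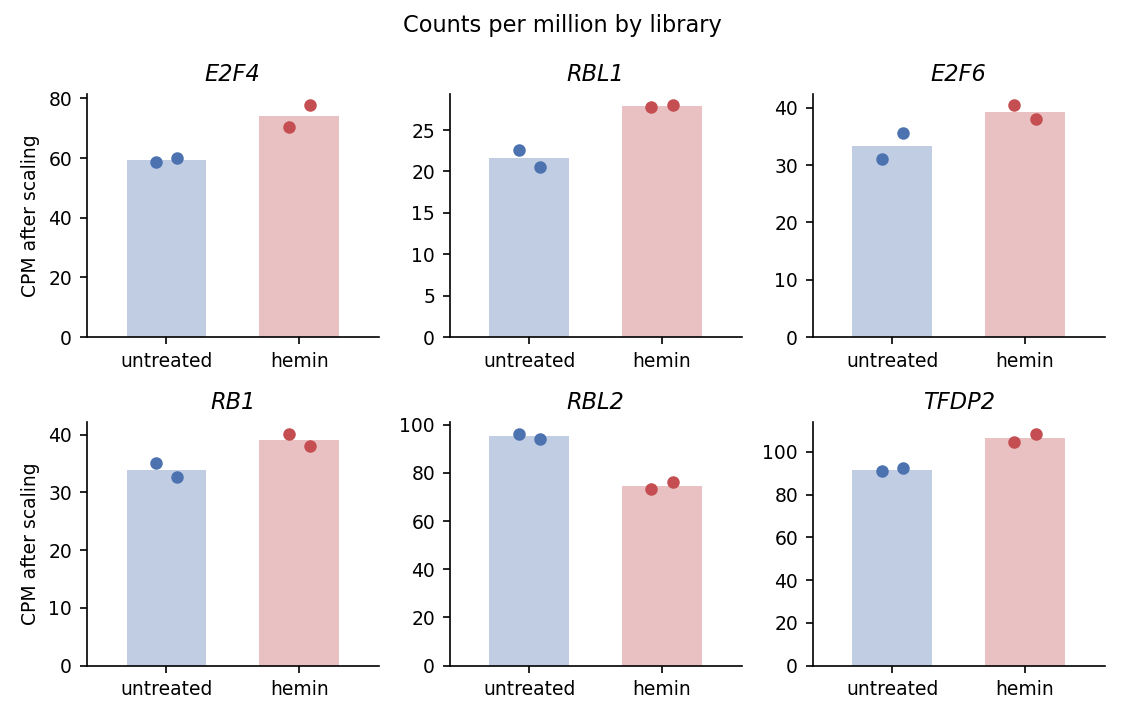
CPM after TMM scaling of E2F4, RBL1, E2F6 and RB1 and of the relatives RBL2 and TFDP2, with bars at the mean of the 2 libraries of a condition and points for each library. In all 6 genes shown the conditions do not overlap in CPM, and RBL2 is the one that lies lower after hemin, at 73.2 and 76.2 CPM against 96.4 and 94.1 CPM. The members E2F1, E2F2, E2F5 and TFDP1, which overlap in CPM, are not shown, nor are E2F3 and E2F8, which do not overlap. Of all genes tested, 28.1% lay above and 29.3% below without overlap. In TPM, RBL2 and TFDP2 overlap.

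The activator genes showed no difference past the test. E2F1, on the minus strand of chromosome 20 (33675477 to 33686385), had 156 and 155 counts before treatment and 130 and 171 after hemin. The hemin libraries lay on either side of the untreated ones, and the log2 fold change was -0.06 with a 95% interval from -0.33 to 0.22 (edgeR adjusted p = 0.808). Without hemin replicate 1 it was 0.08. E2F2, on chromosome 1 (23506438 to 23531233), had 233 and 177 counts in untreated cells and 185 and 172 after hemin. Its untreated replicate 1 stood above the other 3 libraries, and the groups overlapped in CPM. The log2 fold change was -0.21, with an interval from -0.50 to 0.09 (edgeR adjusted p = 0.337). Leaving out untreated replicate 1 brought it to -0.035, and leaving out hemin replicate 2 to -0.093. E2F3, on chromosome 6 (20401879 to 20493714), was the most expressed activator, with 903 and 854 counts in untreated cells and 856 and 953 after hemin. Its level differed little across libraries, at 34.0, 33.7, 33.7 and 33.9 TPM, and its log2 fold change of 0.03 had an interval from -0.08 to 0.14 (edgeR adjusted p = 0.707). With library size only, and with limma on TPM, that of E2F3 was -0.005 and -0.002.

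Among the repressor genes, E2F4 (ENSG00000205250) lies on the plus strand of chromosome 16 (67192155 to 67198918). It had 463 and 449 counts before treatment and 521 and 627 after hemin, which is 58.5 and 60.0 CPM against 70.3 and 77.7 CPM. Both hemin libraries were above both untreated ones in counts, in CPM and in TPM. The log2 fold change was 0.32 with a standard error of 0.070 and a 95% interval from 0.17 to 0.48 (edgeR adjusted p = 0.0165). By DESeq2 the adjusted p was 0.0342, and by limma on log2(TPM + 1) it was 0.329 at a difference of 0.25. The edgeR call was lost without untreated replicate 1 (adjusted p = 0.083), without untreated replicate 2 (0.0609) and without hemin replicate 2 (0.0918), at log2 fold changes of 0.30, 0.34 and 0.25, and it was kept without hemin replicate 1 (0.00358).

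E2F5, on chromosome 8, was read by 186 and 191 counts in untreated cells and by 182 and 178 counts after hemin. The log2 fold change of -0.07 had an interval from -0.31 to 0.16 (edgeR adjusted p = 0.694), and it was 0.003 without hemin replicate 2. Exons of E2F5 overlap those of RBIS on the opposite strand, a gene with 382 to 401 counts per library, and the sources used here do not state whether strand entered the counting, so reads of the overlap cannot be told apart. E2F6, on the minus strand of chromosome 2 (11444375 to 11466177), had 246 and 267 counts in untreated cells and 300 and 307 counts after hemin. Its hemin libraries lay above the untreated ones, at 30.5 and 30.0 TPM against 24.9 and 26.5 TPM. The log2 fold change was 0.23 with an interval from 0.03 to 0.44, which did not pass after adjustment (edgeR adjusted p = 0.125). Without untreated replicate 1 that of E2F6 was 0.14.

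E2F8, the atypical member, lies on chromosome 11 (19224063 to 19241620) and was the least counted, with 70 and 61 counts in untreated cells and 74 and 80 counts after hemin. The conditions did not overlap in CPM, at 8.85 and 8.15 against 9.98 and 9.92. Its log2 fold change of 0.23 had the widest interval of the 10 members, from -0.15 to 0.60 (edgeR adjusted p = 0.418). Its atypical relative E2F7, which is not a member, had 94 and 90 counts before and 76 and 107 counts after hemin, with a log2 fold change of -0.02 (edgeR adjusted p = 0.955) that was 0.16 without hemin replicate 1.

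The pocket protein genes RB1 and RBL1 both had higher counts in the hemin libraries. RBL1 (ENSG00000080839), on the minus strand of chromosome 20 (36996349 to 37095997), was read by 179 and 154 counts in untreated cells and by 206 and 226 counts after hemin. In CPM this was 22.6 and 20.6 against 27.8 and 28.0, with no overlap. The log2 fold change was 0.37 with a standard error of 0.097 and a 95% interval from 0.15 to 0.59 (edgeR adjusted p = 0.0351). This call did not hold by DESeq2 (adjusted p = 0.197), with library size only (edgeR adjusted p = 0.0537), with the replicate number as a block (edgeR adjusted p = 0.0501) or by limma on log2(TPM + 1) (adjusted p = 0.548). It was also lost with any one library left out, at an edgeR adjusted p of 0.0679 without untreated replicate 1, 0.155 without untreated replicate 2, 0.0675 without hemin replicate 1 and 0.102 without hemin replicate 2, with the log2 fold change between 0.30 and 0.44. On the TPM scale RBL1 stood at 8.73 and 8.74 in untreated cells and at 9.06 and 11.2 after hemin, so that hemin replicate 1 lay close to the untreated pair.

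RB1, the retinoblastoma gene itself, lies on chromosome 13 (48303744 to 48599436). It was read by 277 and 245 counts in untreated cells and by 298 and 307 counts after hemin, which is 35.0 and 32.7 CPM against 40.2 and 38.1 CPM. These values did not overlap. The log2 fold change of 0.21 had an interval from 0.02 to 0.39 and did not pass after adjustment (edgeR adjusted p = 0.135). TFDP1, the gene of the DP1 dimer partner, lies on the same chromosome (113584721 to 113641473) and had 447 and 498 counts before and 463 and 559 counts after hemin. Its libraries overlapped in CPM, and its log2 fold change of 0.10 had an interval from -0.10 to 0.30 (edgeR adjusted p = 0.494). Without untreated replicate 1 that of TFDP1 was -0.01.

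**Figure D3:**
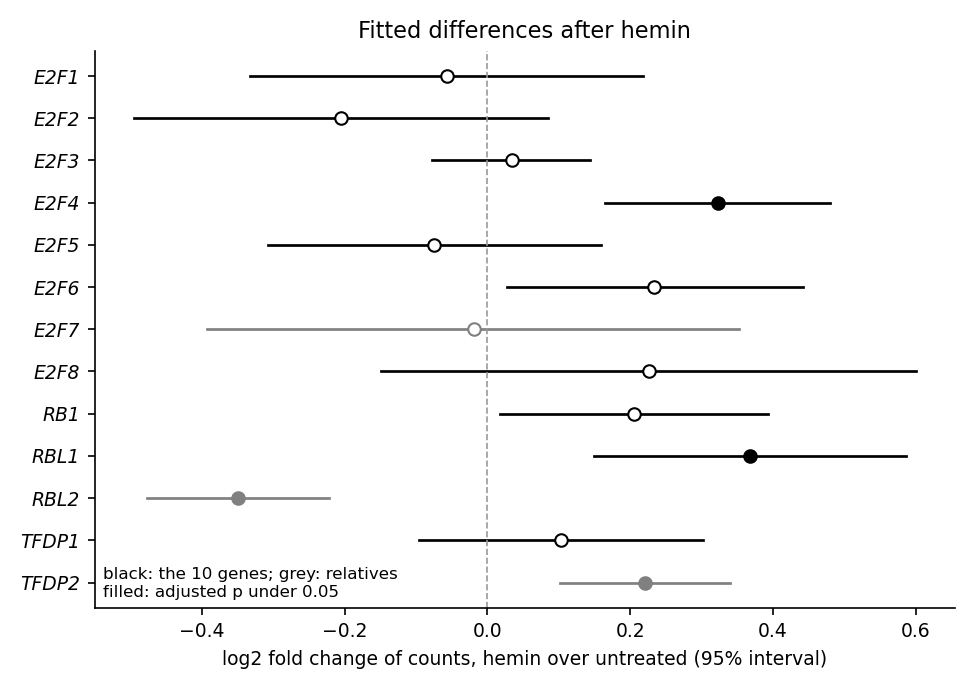
Fitted log2 fold change of counts, hemin over untreated, with its 95% interval, for the 10 genes in black and the relatives E2F7, RBL2 and TFDP2 in grey, where filled points have an edgeR adjusted p under 0.05. E2F4 (0.32), RBL1 (0.37) and TFDP2 (0.22) are filled to the right of 0 and RBL2 (-0.35) to the left, whereas the intervals of E2F1, E2F2, E2F3, E2F5, E2F8 and TFDP1 contain 0.

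Summed by role, the activators E2F1, E2F2 and E2F3 stood at 55.4 and 53.5 TPM in untreated cells and at 51.7 and 50.8 TPM after hemin. The repressors E2F4, E2F5 and E2F6 stood at 103 and 100.4 TPM before and at 114 and 119 TPM after. On the TPM scale the hemin libraries were thus lower for the activator sum and higher for the repressor sum, with no overlap in either. Of the 3 activators only E2F2 had both hemin libraries below both untreated ones, at a mean of 7.48 TPM against 9.95 TPM. The CPM of E2F2 overlapped between conditions. As a share of the summed TPM of the 7 E2F genes, the activators made up 33.9% and 34.1% in untreated cells and 30.3% and 28.9% after hemin. E2F4 alone made up 34.8% and 34.1% before and 38.0% and 38.0% after. For each of these sums and shares the exact two-sided permutation test gave p = 0.333, the smallest value that 2 libraries against 2 can give, so none could pass 0.05. In CPM, which does not divide by effective length, the log2 ratio of the activator sums was -0.01 where that of TPM was -0.09.

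The summed level of the pocket protein genes RB1 and RBL1 was 20.4 and 19.9 TPM in untreated cells and 22.5 and 23.0 TPM after hemin (exact permutation p = 0.333). RBL2, the third pocket protein gene, is not a member and fell after hemin. It was read by 762 and 705 counts before and by 543 and 615 counts after hemin, with a log2 fold change of -0.35 (standard error 0.056, edgeR adjusted p = 0.00471, DESeq2 adjusted p = 0.0056). The call was kept with any one library left out and lost by limma on log2(TPM + 1), where the difference was -0.18 (adjusted p = 0.6), and with length offsets in edgeR, where it was -0.145 (adjusted p = 0.581). Its TPM overlapped between conditions, at 27.7 and 28.1 in untreated cells and 21.8 and 27.7 after hemin, with an effective length of 3739 bases in hemin replicate 2 and of 4610 to 4901 bases in the other libraries. The ratio of RBL1 to RBL2 counts was 0.235 and 0.219 in untreated cells and 0.379 and 0.368 after hemin. On the TPM scale, which is per length, the ratio was 0.315 and 0.311 before and 0.416 and 0.403 after. Both ratios were higher in both hemin libraries (exact permutation p = 0.333, again the smallest possible). Since they set a gene called higher over one called lower in the same libraries, they restate those calls. Of the other ratios computed, E2F4 over E2F1 was also higher in both hemin libraries, in counts and in TPM. That of TFDP1 over TFDP2 overlapped on both scales. RB1 over RBL1 was lower after hemin in counts and overlapped in TPM. Exons of RBL2 overlap those of AKTIP on the opposite strand, which had 65 to 96 counts per library.

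Counts and TPM gave different values for some members, since TPM divides by RSEM's effective length of a gene, the mean over its isoforms weighted by their estimated abundance. This length differed between libraries. For E2F1 it was 2642 bases in all 4 libraries. For E2F2 it was 3798 and 3643 bases in untreated cells and 3845 and 4790 after hemin, and the TPM of E2F2 was lower in both hemin libraries, at 8.91 and 6.05 against 10.9 and 8.97, although the CPM overlapped. For E2F8 it was 2734 and 3658 bases before and 2677 and 2418 after hemin. For RBL1 it was 3653 and 3264 before and 4209 and 3412 after. These lengths varied between libraries of the same condition as well as between conditions. With the effective lengths of each library as offsets in edgeR, an alternative added after the data were seen, 0 members were called, at adjusted p = 0.172 for E2F4 (log2 fold change 0.28) and 0.447 for RBL1 (0.24), and 1 had an unadjusted p under 0.05. By that fit 90 genes were called higher and 136 lower over all genes.

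**Figure D4:**
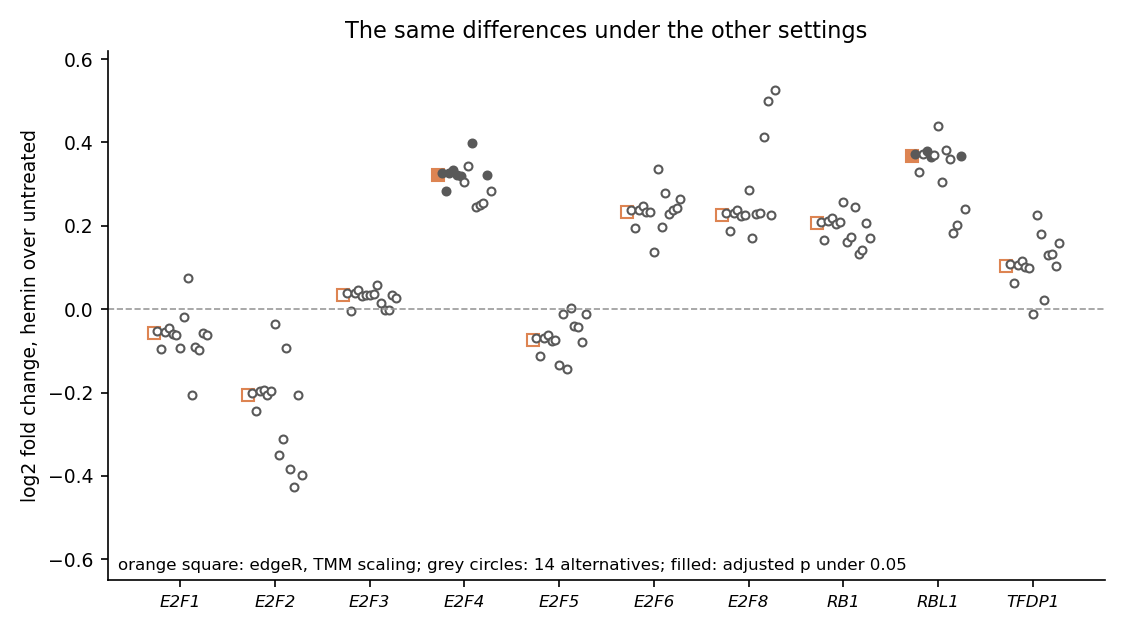
Log2 fold change of each of the 10 genes under edgeR with TMM scaling (orange squares) and under 14 alternative settings (grey circles, in a fixed order), filled where the adjusted p was under 0.05. E2F4 lies above 0 under all of them and is filled in 8 alternatives, RBL1 lies above 0 under all of them and is filled in 4, and no other member is filled under any.

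Among 12 relatives and partners that are not members, 11 were tested, and 2 rose and 1 fell, beside 7.0% of all genes called higher and 7.14% called lower. TFDP3 had no count in any library. TFDP2, which codes for the other DP partner, had 719 and 691 counts before and 777 and 876 after hemin, with a log2 fold change of 0.22 (edgeR adjusted p = 0.0243). Its call was lost without untreated replicate 1 (0.106), untreated replicate 2 (0.0777) or hemin replicate 2 (0.116) and by DESeq2 (0.0892), and its TPM overlapped between conditions. RBBP4, a histone-binding subunit of the MuvB complex and of several corepressor complexes, rose from 3034 and 2835 counts to 3342 and 3542 (log2 fold change 0.22, edgeR adjusted p = 0.00706), and the call was kept with any one library left out. MYBL2, the MYB factor that joins MuvB at late cell cycle genes, had 847 and 800 counts before and 847 and 940 after (log2 fold change 0.11, edgeR adjusted p = 0.179). The median log2 fold change of the 11 was 0.17.

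The G1 cyclins, their kinases and the inhibitors that set the phosphorylation of pocket proteins were split. Of 16 genes 14 were tested, and 3 rose and 3 fell (21.4% in each direction, beside 7.0% higher and 7.14% lower over all genes), with a median log2 fold change of -0.02. The phosphatase gene CDC25A (0.34, edgeR adjusted p = 0.0132) and the kinase genes CDK6 (0.22, 0.0165) and CDK4 (0.25, 0.0188) rose. The kinase inhibitor genes CDKN1A (-1.08, 0.0131) and CDKN1C (-0.68, 0.0117) and the D-type cyclin gene CCND3 (-0.18, 0.0297) fell. CDKN1A was read by 83 and 61 counts before and by 32 and 36 counts after hemin. CDKN2A and CDKN2B, which code for INK4 inhibitors of CDK4 and CDK6, had no count in any library. The INK4 genes CDKN2C, with 183 to 191 counts per library, and CDKN2D, with 14 to 15 counts, were counted in all libraries and not called. The calls of CDC25A, CDKN1C and CDKN1A were lost without untreated replicate 1 (edgeR adjusted p = 0.0761, 0.0693 and 0.0865). Those of CDK6 and CDK4 were lost without untreated replicate 2 (0.0895 and 0.0958) and without hemin replicate 2 (0.0568 and 0.054). That of CCND3 was lost with any one library left out (0.0631, 0.133, 0.0797 and 0.109). DESeq2 called 2 genes of this list higher and 2 lower, without CDK4 (adjusted p = 0.06) and CCND3 (0.105). The TPM of CDC25A and CDK6 overlapped between conditions, and that of CDK4, CDKN1A, CDKN1C and CCND3 did not. With length offsets in edgeR, CDC25A was at 0.167 and CDK6 at 0.131, and no gene of this list was called.

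Genes known as early E2F targets, which act at the G1 to S transition and in DNA replication, were listed separately from late genes of G2 and mitosis. Of 42 early targets, all tested, 19 rose and 0 fell (45.2% and 0%, beside 7.0% and 7.14% of all genes), with 38 log2 fold changes above 0 (35 with library size only) and a median of 0.19, beside -0.005 over all genes tested. At an unadjusted p under 0.05, edgeR gave 30 higher and 0 lower, beside 14.8% and 14.6% of all genes. DESeq2 called 11 higher and 0 lower after adjustment, beside 4.07% and 3.49%. MCM5, a subunit of the replicative helicase, had the smallest p and rose from 121 and 112 CPM to 189 and 193 CPM (log2 fold change 0.71, edgeR adjusted p = 1.2e-04). The helicase subunits MCM7 (0.37, 7.3e-04) and MCM4 (0.33, 0.00185) followed by p, and these 3 calls were kept with any one library left out. The count of early targets called higher was 7 without untreated replicate 1, 10 without untreated replicate 2, 17 without hemin replicate 1 and 12 without hemin replicate 2, and it was 14 with library size only, 0 by limma on TPM and 4 with length offsets.

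Of 29 late targets tested out of 30, 1 rose and 1 fell (3.45% in each direction, beside 7.0% and 7.14% of all genes). Their median log2 fold change was -0.02, with 9 values above 0 (31.0%, beside 49.1% of all genes). That count was 6 with library size only and 13 without hemin replicate 1. CENPF, a kinetochore gene, was at 0.20 (edgeR adjusted p = 0.029), and AURKB, the mitotic kinase, was at -0.39 (edgeR adjusted p = 0.0343). The CENPF call was lost without untreated replicate 1 (0.0866), untreated replicate 2 (0.121) or hemin replicate 2 (0.156), and that of AURKB without untreated replicate 1 (0.0649), untreated replicate 2 (0.175) or hemin replicate 1 (0.139) and by DESeq2 (0.0594). UBE2C was counted 0 to 7 times per library and was not tested. The difference between the early and the late genes was not tested. By the same words as above, 21 of the 36 early targets with a RefSeq promoter held an E2F word and 3 of the 25 late ones did. Among the early targets, 9 of 16 called and 12 of 20 not called held one. The CHR word TTTGAA, known from late cell cycle genes, stood in a promoter of 17 of the 25 late and 2 of the 36 early genes, against 18.2% of all genes with a promoter. For the E2F words that share was 3.99%.

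**Figure D5:**
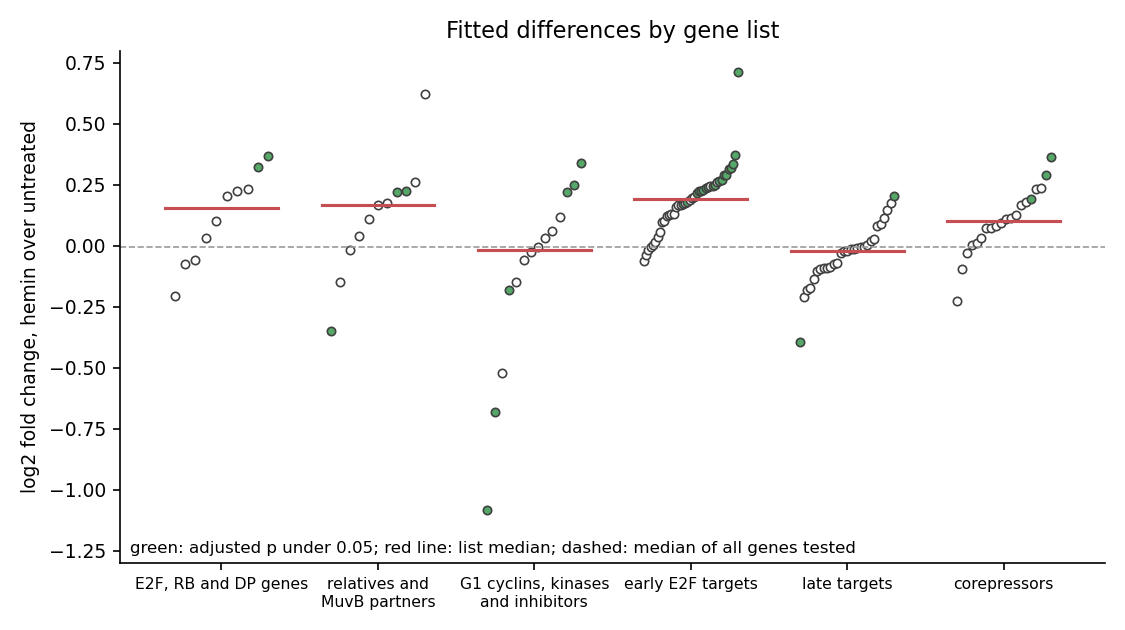
Fitted log2 fold change (hemin over untreated) of each tested gene by list, ordered by value within a list, with green points for an edgeR adjusted p under 0.05, a red line at the median of the list and a dashed line at the median of all genes tested. The early E2F targets lie mostly above 0 with a median of 0.19, the late targets lie around -0.02, and the 10 E2F, RB and DP genes have a median of 0.15.

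Of 20 corepressors that E2F and pocket protein complexes are known to use, 3 rose and 0 fell (15.0% and 0%, beside 7.0% and 7.14% of all genes). Their median log2 fold change was 0.10, with 17 values above 0, beside 49.1% of all genes. That count was 14 with library size only and 13 by limma on log2(TPM + 1), where the median was 0.053. At an unadjusted p under 0.05 there were 8 higher and 0 lower by edgeR, beside 14.8% and 14.6% of all genes, and DESeq2 called 2 higher and 0 lower, beside 4.07% and 3.49%. MGA, a MAX partner found in E2F6 complexes, rose by 0.29 on the log2 scale (edgeR adjusted p = 0.00465) and was called with any one library left out. The remodeller SMARCA4 rose by 0.19 (0.016) and RYBP, a Polycomb subunit of E2F6-type complexes, by 0.36 (0.0189). The SMARCA4 call was lost without untreated replicate 1 (0.0862) or hemin replicate 2 (0.0618), and that of RYBP without untreated replicate 1 (0.0887), untreated replicate 2 (0.0753) or hemin replicate 2 (0.0938) and by DESeq2 (0.0649). ARID4A, an RB-binding protein gene, was at -0.23 (edgeR adjusted p = 0.186) and passed without hemin replicate 2 (0.0246).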

How the data were processed

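Poly(A) RNA of 2 untreated and 2 hemin-treated K562 libraries was analysed from the deposited gene tables. The authors trimmed 50-base reads with Trimmomatic 0.39 and quantified each library with RSEM 1.3.1 on the Ensembl 106 annotation of GRCh38, with STAR for alignment. The deposited expected counts are RSEM's estimated counts per gene, not normalized, with reads shared between genes divided among them. The deposited posterior mean counts and the posterior SD (a signal column) describe the estimate of that division and its uncertainty. For the 10 members the posterior SD was at most 2.10% of the count. The TPM and FPKM were scaled by the authors for effective length and depth, and the effective lengths (deposited as a signal in bases) were also used. The authors' tables of the whole series were used for gene symbols only, and 8 value columns in them were not used.

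After rounding, a filter on low counts (filterByExpr) and TMM scaling, expected counts were fitted in R 4.3.3 by edgeR 4.0.16 (quasi-likelihood, condition as the only term, Benjamini-Hochberg adjustment over 14458 genes, threshold 0.05). Standard errors and 95% intervals come from that fit, whose common dispersion was 0.001179. The limit of 3 counts for a count of 0 covers counting error only. Sums and ratios were tested by exact two-sided permutation. The fitting code was tested on simulated data.

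The fit was repeated with RLE factors, with library size only, with DESeq2 1.42.0, without a filter or with at least 20 counts in both libraries of a condition, with a replicate block, with each library omitted in turn, and with limma 3.58.1 on log2(TPM + 1) and log2(TPM + 0.1) and posterior mean counts, with effective length offsets added after the data were seen. Where an omitted library leaves 1 in a condition, the fit takes its spread from the other condition. Positions are from GENCODE 44 (GRCh38), and promoters from RefSeq (GRCh38.p14), matched by symbol. The members and lists were chosen with earlier results of these data known. Named were all members, E2F7, RBL2, TFDP2 and MYBL2, the 3 smallest p called per list and direction (else the smallest p), and the highest and lowest marker of each marker list, except 1 gene that is not reported here.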

Additional observations from a re-analysis of the deposited data

How the results depend on the processing

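Across 14 alternative settings, 118 of 140 fitted log2 fold changes of the 10 members kept their direction and their side of the threshold, an adjusted p under 0.05. Of the rest, 16 kept their direction but were no longer past it, and 6 changed sign. Of 322 such values for the other named genes, 234 kept both, 81 were no longer past the threshold, 6 came past it and 1 changed sign. A gene not called in the main fit counts as kept when it stays not called. The members that were called, E2F4 and RBL1, kept their call in 8 and in 4 of the 14 settings. The changes of sign were in genes near 0, namely E2F1, E2F5, TFDP1 and E2F7, which with a library left out ranged from -0.205 to 0.076, from -0.143 to 0.003, from -0.012 to 0.226 and from -0.222 to 0.157. They also held for E2F3 at -0.005 with library size only and at -0.002 by limma on log2(TPM + 1) and on log2(TPM + 0.1). The cause was not tested.

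The number of members called higher was 1 with library size only, 1 by DESeq2, 1 with the replicate block, 0 by limma with either pseudocount (0 also at an unadjusted p under 0.05), 0 with length offsets (1 at an unadjusted p under 0.05) and 0 to 1 with a library left out. Over all genes, DESeq2 called 589 higher and 505 lower, limma 0 and 0 on log2(TPM + 1) (743 and 1606 at an unadjusted p under 0.05) and 0 and 2 on log2(TPM + 0.1), length offsets 90 and 136, and fits without a library 469 to 934 and 512 to 884. With library size only, 34.9% of all calls were higher, against 49.5% with TMM. By limma with either pseudocount, the relatives, the G1 genes, the early targets, the late targets and the corepressors each had 0 called higher and 0 called lower. With length offsets 4 early targets and 0 genes of the relatives, G1 genes, late targets and corepressors were called higher, and 0 relatives, 0 G1 genes, 0 late targets and 1 corepressor lower. DESeq2 called 1 relative and 11 early targets higher and 0 late targets lower. With library size only, 0 late targets were called higher and 2 lower, and with no count filter 2 were lower. With a library left out, 1 to 2 relatives, 1 to 3 G1 genes, 7 to 17 early targets, 0 to 1 late targets and 1 to 3 corepressors were called higher, and 0 to 3 G1 genes, 0 to 2 late targets and 0 to 1 corepressors lower.

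Same-numbered libraries shared no deviation from their group means (correlation 0.00243 over 14458 genes), and with 2 pairs the numbers were not taken as pairs. With the replicate number as a block, the count of calls over all genes was 855 higher and 886 lower. That block moved RBL1 to an edgeR adjusted p of 0.0501 and changed no other call among the members. The differences of E2F6, E2F8 and RB1 did not pass after adjustment, which is no sign that these genes did not differ. E2F8, with 61 to 80 counts per library, had the widest interval of the members, from -0.15 to 0.60.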
